A study of Mus musculus with 48 samples.

Results

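Cytochromes P450 of families 1 to 4, the haem enzymes that oxidise drugs, pollutants, steroids and fatty acids in the endoplasmic reticulum, were followed in mouse livers after acute activation of β-catenin, of MYC or of both. The genes were chosen by their symbols, which had to be Cyp followed by a family number from 1 to 4, a subfamily letter and a gene number. The rule itself used no measured value, but it was chosen with earlier results of these data known. This gave 69 genes of the 20622 in the RNA tables, with 3 in family 1, 44 in family 2, 7 in family 3 and 15 in family 4. A coding sequence with counts of ribosome-protected fragments (RPFs), which are mRNA stretches shielded by a translating ribosome, was listed for 66 of them.

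WT, B (*Ctnnb1ex3/+*), M (*R26-LSL-MYC*) and BM (both alleles) mice were compared. The Ctnnb1ex3 allele gives a stabilised β-catenin once Cre has removed exon 3, and *R26-LSL-MYC* expresses a MYC transgene once Cre has removed a stop cassette. All mice, WT included, were males of 2 to 4 months and at least 20 g, and all received AAV8.TBG.PI.Cre.rBG, a virus whose TBG promoter restricts Cre to hepatocytes, at 2e+11 genome copies per mouse as the sample labels give it (their protocol gives this number per ml). Each genotype had 3 mice at day 4 and 3 at day 10 after the virus, and RPFs and cytoplasmic RNA were sequenced from each liver, which gave 24 mice and 48 libraries. Whole livers were used, so Cre-negative cell types contribute RNA, and fewer cells of a type and less RNA per cell cannot be told apart.

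In a healthy liver lobule, WNT ligands from the central vein keep β-catenin active in the surrounding pericentral hepatocytes, and many P450 genes are expressed there, while *Cyp2f2* is a classical periportal gene. Nuclear receptors set the levels of the other subfamilies: AhR controls *Cyp1a*, CAR and PXR control *Cyp2b*, several *Cyp2c* and *Cyp3a* genes, and PPARα controls *Cyp4a*. Growth hormone makes another set of these genes differ between the sexes. All of the enzymes need electrons from P450 oxidoreductase and a haem group.

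RNA libraries held 3254141 to 6540116 counts (median 5077216) and RPF libraries 9742197 to 14380713 (median 12503695). Levels per mouse are given as counts per 1000000 reads (CPM), scaled by TMM over the 24 libraries of a type, and levels between genes are compared only as transcripts per 1000000 transcripts (TPM), which correct for length. The pericentral β-catenin target *Glul* had 441 to 810.4 CPM in the WT and M mice and 2001 to 6365 CPM in the B and BM mice. *Axin2*, another target, was at 29.4 CPM in mouse 1 of BM at day 10 and at 9.17 and 6.23 CPM in the others, and this liver stood apart from the other BM livers of day 10 in many P450 values too. Counts of BM calls at day 10 are therefore also given without it. The summed level of 6 hepatocyte markers (*Alb*, *Apoa1*, *Ttr*, *Serpina1c*, *Fgb* and *Tat*) was 88539 to 96892 CPM in WT at day 4, 50642 to 83839 CPM in B and M, and 30359 to 38831 CPM in BM. At day 10 it was 89233 to 89623 CPM in WT, 30662 to 46419 CPM in B and M, and 27075 to 29543 CPM in BM.

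Sums of 6 markers each for Kupffer, endothelial, stellate, bile duct and blood cells were far lower. In BM at day 4, all 6 Kupffer markers were called lower (95.6 to 122 CPM in sum, against 224 to 281 in WT), as were all 6 endothelial ones (211 to 248 against 347 to 357), 4 of 6 stellate ones (222 to 279.8 against 419 to 444), all 4 blood markers tested (124 to 184 against 291 to 305) and 3 of 5 bile duct markers (80.6 to 117 against 103 to 185). In B at day 4, 3 Kupffer markers (161 to 194 CPM), 2 endothelial ones (309.7 to 329.5 CPM), 1 blood and 1 bile duct marker were called lower. In M at day 4, 3 endothelial markers (239.9 to 306 CPM), 2 stellate ones (313 to 380.3 CPM), 3 blood markers (175 to 231 CPM) and 1 bile duct marker were called lower, and 1 Kupffer marker each way (144 to 449 CPM). In BM at day 10, 5 of 6 stellate markers were called lower and 1 higher (211 to 235 CPM against 470.4 to 539.6), and so were 5 and 1 of the endothelial ones (225 to 287 CPM against 378 to 406). At day 10, 4 of 6 stellate markers were also called lower in B (232 to 282 CPM in sum) and 3 in M (348 to 377 CPM), and 3 of 6 endothelial markers in B (271 to 324 CPM) and 4 in M (251 to 288 CPM). In M at day 10, 2 of 3 blood markers tested were called lower (188 to 296 CPM in sum against 304 to 486 in WT). In B at day 10, 1 Kupffer marker was called each way (244 to 260 CPM). Of the Kupffer markers of BM, 2 were called higher and 1 lower at day 10 (269 to 321 CPM against 219 to 263), and the blood sum ranged from 158 to 597 CPM. *Cd79a* was at 0 in WT at day 4 and *Cd3e* in M at day 10. The part of these shifts in the P450 results was not tested.

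P450 genes sit side by side on the chromosomes, and 61 of the 69 lay within 500000 bp of another (GRCm39). The largest blocks held 14 *Cyp2c* genes at chr19:38995462-40175777, 13 genes with *Cyp2a*, *Cyp2b* and *Cyp2f2* at chr7:25501895-26858093, 8 *Cyp4f* genes at chr17:32671694-33166434 and 7 *Cyp2d* genes at chr15:82254727-82678509. The 6 clustered *Cyp3a* genes lay at chr5:145282089-146050097, *Cyp4a14*, *Cyp4a10* and *Cyp4a31* with their neighbours at chr4:114963434-115504999, *Cyp1a1* and *Cyp1a2* at chr9:57584196-57611107, and *Cyp2e1* alone at chr7:140343652-140355167.

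Neighbours were often near copies, which limits how reads can be assigned to them. Among the 66 coding sequences, 34 shared at least 15% of their 33-base windows with another gene and 13 shared none. *Cyp2a4* and *Cyp2a5*, steroid and coumarin hydroxylases, differed at 23 of 1485 coding bases (98.45% identity). Coding bases 580 to 669 of both, which span exons 4 and 5 on the plus strand of GRCm39 (chr7:26008439-26010145 for *Cyp2a4* and chr7:26536602-26538307 for *Cyp2a5*, introns included in the positions), show how little tells the copies apart, with the 5 differing bases in capitals.
Cyp2a4: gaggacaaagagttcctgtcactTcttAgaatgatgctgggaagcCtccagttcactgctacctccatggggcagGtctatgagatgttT
Cyp2a5: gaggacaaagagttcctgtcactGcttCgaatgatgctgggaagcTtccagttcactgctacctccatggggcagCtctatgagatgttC

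*Cyp2c40*, an arachidonic acid hydroxylase, and its neighbours *Cyp2c67*, *Cyp2c68* and *Cyp2c69*, each with 1476 coding bases, were 96.54% to 98.1% identical in pairs. Coding bases 215 to 304, in exon 2, are shown 5′ to 3′ on the minus strand of GRCm39 (chr19:39795986-39796075, chr19:39632063-39632152, chr19:39727847-39727936 and chr19:39869917-39870006 in this order), with capitals at the 10 positions where the copies differ.
Cyp2c40: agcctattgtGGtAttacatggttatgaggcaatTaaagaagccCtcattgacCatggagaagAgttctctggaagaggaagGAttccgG
Cyp2c67: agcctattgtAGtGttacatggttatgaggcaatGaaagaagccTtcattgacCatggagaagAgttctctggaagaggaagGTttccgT
Cyp2c68: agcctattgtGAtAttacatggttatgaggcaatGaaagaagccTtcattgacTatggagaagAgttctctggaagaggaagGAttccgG
Cyp2c69: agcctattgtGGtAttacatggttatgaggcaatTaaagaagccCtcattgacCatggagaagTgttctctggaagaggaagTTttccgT

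RNA and RPF counts disagreed in such copies. *Cyp2a4* had 129 to 778 RNA counts per library but 0 to 23 RPF counts, and *Cyp3a44* had 140 to 601 RNA counts and 6747 to 22282 RPF counts. *Cyp2c69* had 50 to 545 RNA counts and 2363 to 13227 RPF counts. Values of single copies are therefore uncertain, and 29 genes in 11 groups of near copies were also tested as sums.

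In WT livers the P450 pool was led by a few genes. The mean RNA level over the 6 WT mice was 3355 TPM for *Cyp3a11*, the main drug-oxidising 3A enzyme, 3001 TPM for *Cyp2e1*, which oxidises ethanol and acetaminophen, and 1122 TPM for *Cyp2f2*, a lung and liver enzyme that activates naphthalene. *Cyp2d9* (745.7 TPM), *Cyp2c29* (715 TPM), *Cyp2d10* (653 TPM) and *Cyp2c70* (597 TPM), which makes muricholic acids, came next. Of the 69 genes, 51 had at least 1 TPM, 40 at least 10, 21 at least 100 and 3 at least 1000. A filter on low counts left 53 genes testable in RNA and 52 in RPFs in at least 1 comparison, and 14 genes, with at most 9 RNA counts in any library, were tested in neither (*Cyp2b9*, *Cyp2b19*, *Cyp2b23*, *Cyp2c65*, *Cyp2c66*, *Cyp2g1*, *Cyp2j11*, *Cyp2j12*, *Cyp2j13*, *Cyp2s1*, *Cyp2t4*, *Cyp4f37*, *Cyp4f39* and *Cyp4f40*).

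Each gene was tested against WT with the quasi-likelihood test of edgeR, adjusted by the Benjamini-Hochberg method over all genes, with the study's threshold of an adjusted p under 0.1. Log2 changes carry their standard error, and p-values measure the spread between mice. In B at day 4, P450 genes rose more often than they fell: 22 of the 51 tested were called higher in RNA, where 4.41% of all genes were, and 5 lower, where 3.73% of all genes were. In RPFs, 22 of 48 were called higher (all genes, 6.21%) and 7 lower (all genes, 6.26%). At day 10 the balance in B had turned, with 10 of 51 called higher (all genes, 8.14%) and 15 lower (all genes, 7.48%) in RNA. RPFs of B at day 10 gave 5 of 49 higher (all genes, 13.1%) and 20 lower (all genes, 12.1%).

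M at day 4 had 11 of 52 P450 RNAs called higher (all genes, 13.5%) and 14 lower (all genes, 10.3%), and in RPFs 11 of 50 higher (all genes, 18.5%) and 19 lower (all genes, 14.7%). At day 10, 2 of 50 were called higher in M RNA (all genes, 8.53%) and 15 lower (all genes, 7.12%). The 17 RNA calls of M at day 10 were 9 without WT mouse 3 of day 10 and 8 without M mouse 1 of day 10. In RPFs of M at day 10, 3 of 51 were called higher (all genes, 10.6%) and 12 lower (all genes, 8.8%).

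BM had more P450 genes called lower than B or M at each day. At day 4, 16 of 51 were called higher in RNA (all genes, 21.3%) and 22 lower (all genes, 20.6%), and in RPFs 13 of 48 higher (all genes, 26.2%) and 25 lower (all genes, 24.7%). At day 10, 33 of 52 P450 RNAs were called lower, where 22.8% of all genes were, and 6 higher, where 22.9% of all genes were. The median fitted log2 change of the P450 genes was -0.87, and that of all genes tested was 0.03. In RPFs of BM at day 10, 4 of 50 were called higher (all genes, 24.5%) and 29 lower (all genes, 22.3%). Without BM mouse 1, 36 of 52 RNAs were called lower (all genes, 29.2%), and 34 of 51 RPF values (all genes, 32.9%).

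Some of these calls fell on genes that passed the count filter only through the group in which they were higher, with fewer than 3 libraries of the other group at the filter's level. Called higher in this way against WT were *Cyp2b10* in RNA and RPFs and *Cyp2b13* in RPFs of M at day 4, *Cyp2c39* in RNA of B at day 10 and of BM at both days and in RPFs of B and BM at day 4, *Cyp4a14* in RNA of B and BM at day 4, and *Cyp4f16* in RNA and *Cyp1b1* and *Cyp4f18* in RPFs of BM at day 10. Called lower in this way were, in RPFs, *Cyp2c40* in all 3 mutant genotypes at day 10 and *Cyp2d34* in B at day 10 and in BM at both days. Without these calls, the RNA counts higher were 21 (B), 10 (M) and 14 (BM) at day 4 and 9 (B), 2 (M) and 4 (BM) at day 10, and the RNA counts lower did not change. The RPF counts higher became 21 (B), 9 (M) and 12 (BM) at day 4 and 5 (B), 3 (M) and 2 (BM) at day 10, and the RPF counts lower 7 (B), 19 (M) and 24 (BM) at day 4 and 18 (B), 11 (M) and 27 (BM) at day 10. In RPFs of M at day 4, 9 of the 48 other genes (18.75%) were then higher, near the share of all genes given above.

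The split between higher and lower depended on the scaling. With library totals in place of TMM, the median log2 change of all genes was 0.18 to 0.54 in these RNA comparisons, and the P450 counts higher and lower in RNA became 26 and 3 in B at day 4, 25 and 3 in M at day 4 and 28 and 15 in BM at day 4. At day 10 they became 11 and 13 in B, 5 and 9 in M and 11 and 26 in BM. In RPFs they became 24 and 6 (B), 23 and 9 (M) and 21 and 18 (BM) at day 4, and 10 and 17 (B), 5 and 8 (M) and 8 and 23 (BM) at day 10. The calls of all genes moved upwards as well. In RNA, the shares of all genes called higher and lower with library totals were 14.4% and 2.07% (B), 50.7% and 2.60% (M) and 67.2% and 5.48% (BM) at day 4, and 19.6% and 3.77% (B), 16.9% and 2.84% (M) and 47.6% and 11.4% (BM) at day 10. In RPFs they were 11.4% and 3.80% (B), 38.17% and 6.13% (M) and 59.5% and 8.70% (BM) at day 4, and 33.9% and 5.12% (B), 30.5% and 3.35% (M) and 43.3% and 10.9% (BM) at day 10. With library totals, 87.44% of all RNA calls of B at day 4 were higher, near the 89.66% of the P450 calls, where TMM gave 54.19% and 81.48%. Of genes tested in B at day 4 with library totals, 26 of 51 P450 genes and 14.4% of all genes were called higher. In M at day 4, 95.13% of all RNA calls and 89.29% of P450 calls were higher with library totals, and in BM at day 4 these were 92.47% and 65.12%. In BM at day 10 they were 80.73% and 29.73%, and 26 of 52 P450 genes and 11.4% of all genes were called lower.

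**Figure D1:**
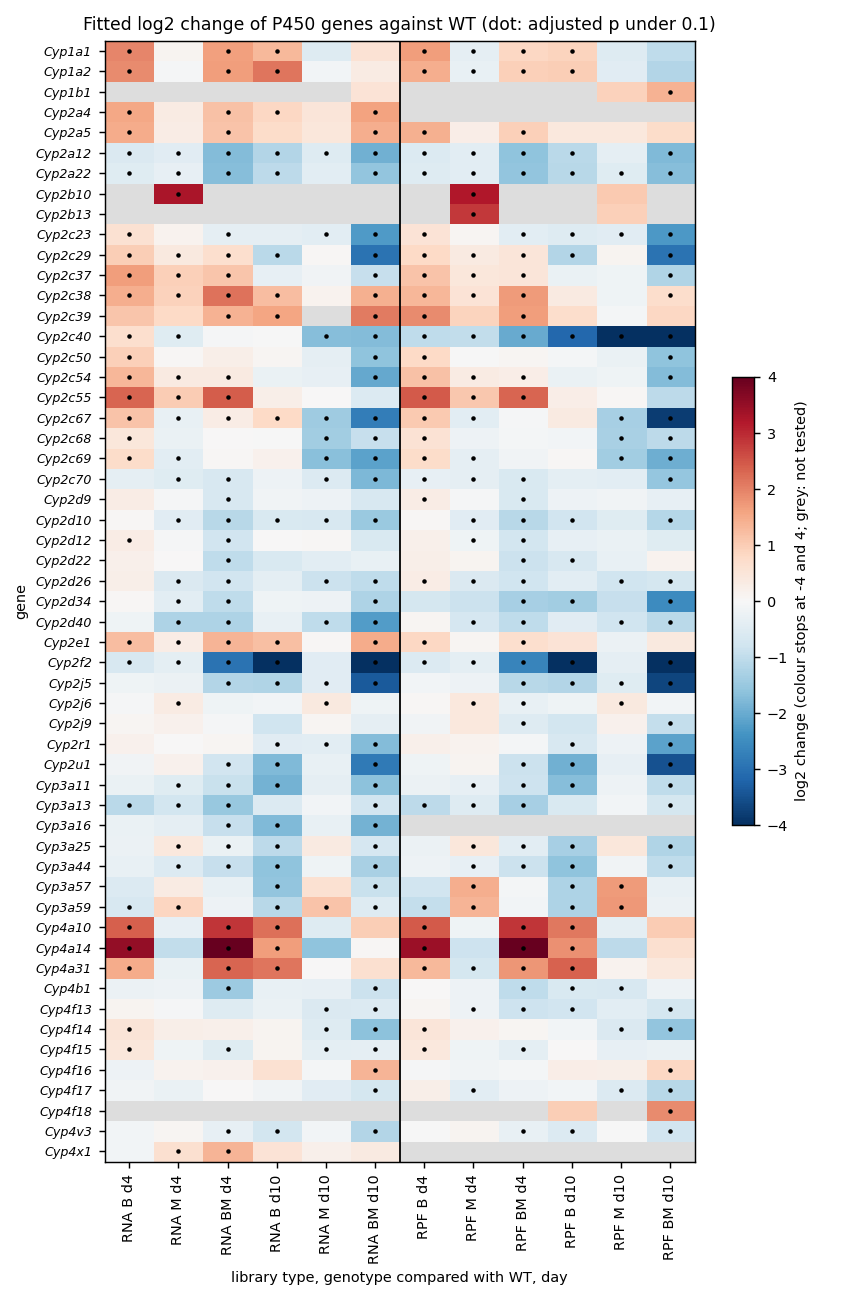
Fitted log2 change against WT of each P450 gene tested in RNA (left 6 columns) or RPFs (right 6 columns), with red for higher and blue for lower (colour stops at -4 and 4), a dot for an adjusted p under 0.1 and grey where a gene was not tested. Subfamilies 1a and 4a are red in B at both days and in BM at day 4, *Cyp2f2* is blue in B and BM, and most of the BM column of day 10 is blue.

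*Cyp2f2*, the periportal gene, had the deepest loss of all P450 genes tested in RNA. In WT its RNA was at 1538, 1588 and 1501 CPM at day 4 and 1697, 1169 and 1627 CPM at day 10. B livers had 1259.8, 777 and 927 CPM at day 4 and 31.5, 28.2 and 57.1 CPM at day 10, and BM livers had 245, 146 and 204 CPM at day 4 and 6.96, 6.19 and 7.27 CPM at day 10. The B and BM mice lay below every WT mouse of their day, and the loss deepened between the days in both genotypes. *Cyp2f2* RNA was 38.25-fold lower in B at day 10 (log2 change -5.26 ± 0.30 (SE), edgeR adjusted p = 1.54e-06) and 220.1-fold lower in BM at day 10 (log2 change -7.78 ± 0.24 (SE), edgeR adjusted p = 9.78e-07). At day 4 BM was 7.78-fold lower (log2 change -2.96 ± 0.16 (SE), edgeR adjusted p = 2.39e-08). The smaller difference of B at day 4 (log2 change -0.64 ± 0.15 (SE), edgeR adjusted p = 0.0268) was not called without B mouse 2 (-0.49) or B mouse 3 (-0.59).

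Ribosome occupancy of *Cyp2f2* fell with its RNA. RPFs were at 2465, 1964 and 2648 CPM in WT, 52.4, 49.0 and 132 CPM in B and 9.86, 30.04 and 28.8 CPM in BM at day 10, with no overlap between the groups' ranges in B and BM against WT. This was 30.5-fold lower in B and 104-fold lower in BM (log2 change -6.70 ± 0.49 (SE), edgeR adjusted p = 0.000148). In M the RNA was at 1165, 1186 and 1167 CPM at day 4, below every WT mouse (log2 change -0.39 ± 0.09 (SE), edgeR adjusted p = 0.00818), but with library totals the log2 change was -0.04 and was not called. M mice of day 10 overlapped with WT at 1143, 1264 and 883 CPM.

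The AhR targets *Cyp1a1* and *Cyp1a2*, which metabolise polycyclic hydrocarbons and caffeine, were raised in B, and neither was called in M RNA (with library totals *Cyp1a2* was called at 0.30 in M at day 4). *Cyp1a2* RNA was at 197, 200.2 and 158 CPM in WT, 475, 849 and 734 CPM in B, 170.1, 205 and 156 CPM in M and 551, 640.2 and 579 CPM in BM at day 4. All B and BM mice were above all WT and M mice. The rise was 3.70-fold in B (log2 change 1.89 ± 0.18 (SE), edgeR adjusted p = 7.98e-05) and 3.19-fold in BM (log2 change 1.67 ± 0.11 (SE), edgeR adjusted p = 1.03e-07), and M gave -0.06 ± 0.12, which was not called. At day 10 the values were 162, 122 and 227 CPM in WT, 1204, 603 and 463 CPM in B, 159, 161 and 151 CPM in M and 290.4, 169.9 and 178 CPM in BM. B mice remained above WT (4.44-fold, log2 change 2.15 ± 0.33 (SE), edgeR adjusted p = 0.00171), while the BM range overlapped with WT (0.32 ± 0.27, not called, but called at 0.74 with library totals).

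*Cyp1a2* RPFs rose less than its RNA. They were at 1166, 641 and 1292 CPM in WT, 2671, 2052 and 1438 CPM in B and 941, 260.4 and 180.1 CPM in BM at day 10, and mice 2 and 3 of BM were below every WT mouse while mouse 1 was among them. The log2 change in RPFs was 1.46 ± 0.14 in B and 0.94 ± 0.09 in BM at day 4, and 0.97 ± 0.28 in B at day 10, which was not called without B mouse 1 (0.74) or mouse 2 (0.97). In BM at day 10 it was -1.18 ± 0.59 and not called, and without mouse 1 it was -2.24 and called. In M at day 4, RPFs of *Cyp1a2* were lower at 837, 918 and 848 CPM against 1087, 1099 and 1051 CPM (log2 change -0.28 ± 0.07 (SE), edgeR adjusted p = 0.0154), a call that ended with library totals.

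*Cyp1a1* followed the same order at far lower counts, with 3.79, 3.95 and 2.40 CPM in WT, 9.12, 17.4 and 13.6 CPM in B and 11.8, 10.4 and 9.97 CPM in BM at day 4. The log2 change was 1.96 ± 0.29 in B and 1.65 ± 0.23 in BM at day 4, without overlap with WT. At day 10, B had 14.1, 6.47 and 8.05 CPM against 4.35, 2.35 and 4.91 CPM (log2 change 1.31 ± 0.35 (SE), edgeR adjusted p = 0.0346), a call that was lost without WT mouse 2 (1.02) or B mouse 1 (0.93). *Cyp1b1*, the third AhR target, is expressed outside hepatocytes in the liver and passed the count filter only in BM and M of day 10. It passed there on few counts, so it is described with no test. Its RPF counts at day 10 were 8, 7 and 3 in WT and 24, 27 and 17 in BM, and its RNA counts were 8, 6 and 11 in WT and 15, 13 and 7 in BM.

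**Figure D2:**
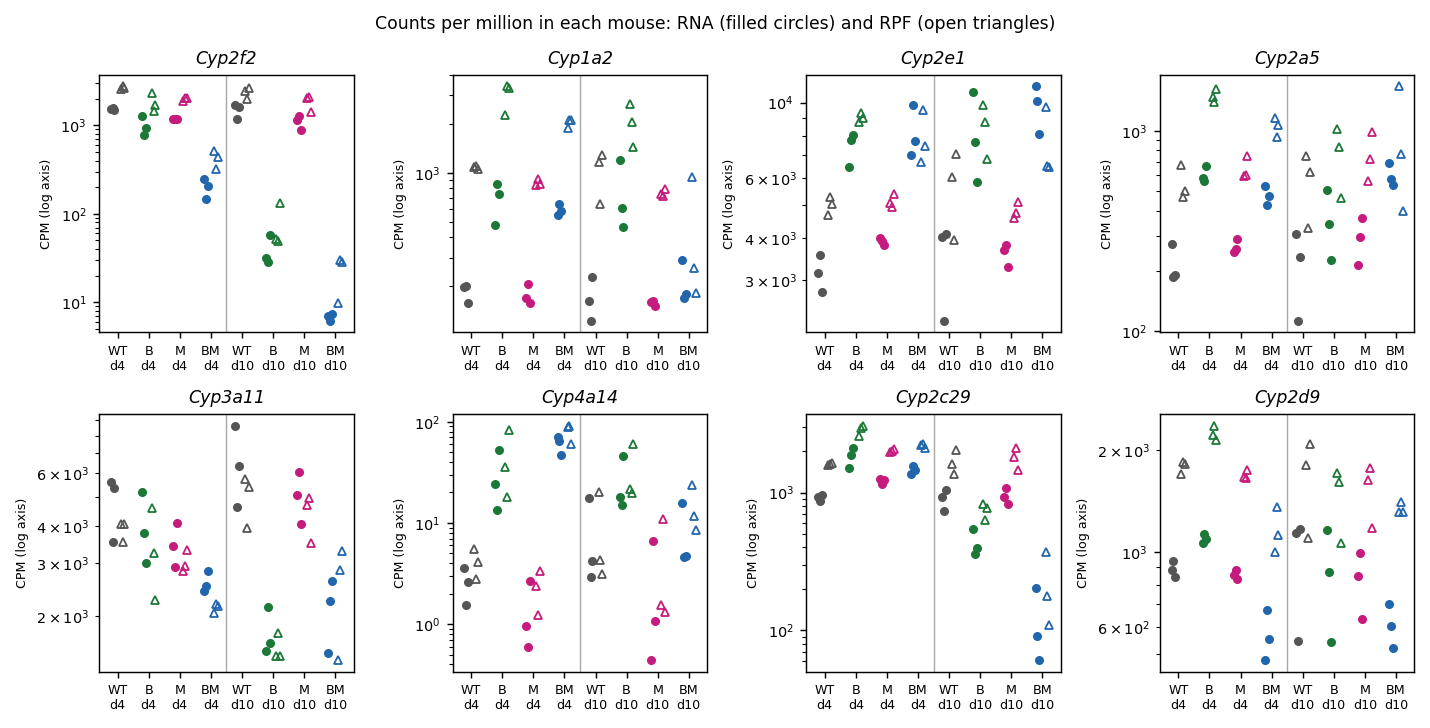
Level in CPM (log axis) of 8 P450 genes in each of the 24 mice, with filled circles for RNA and open triangles for RPFs, grouped by genotype and day (d4, d10). *Cyp2f2* RNA drops to between 6.19 and 57.1 CPM in B and BM at day 10, *Cyp1a2*, *Cyp2e1* and *Cyp2a5* rise in B and BM at day 4, *Cyp4a14* rises in B and BM at day 4, and *Cyp3a11* and *Cyp2c29* are low in B and BM at day 10.

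*Cyp2e1*, the pericentral ethanol oxidiser, kept a raised RNA level in both genotypes with mutant β-catenin. Its RNA was at 3161, 3567 and 2779.7 CPM in WT, 6478, 7742 and 8029 CPM in B and 7021, 9868 and 7700.3 CPM in BM at day 4. At day 10 it was at 4023, 2286 and 4118 CPM in WT, 10727, 7646 and 5843 CPM in B and 11167, 10115 and 8058 CPM in BM. No B or BM mouse overlapped with the WT mice of its day. The log2 change in B was 1.22 ± 0.15 at day 4 and 1.22 ± 0.28 at day 10, and in BM 1.37 ± 0.15 and 1.49 ± 0.26. M was at 3992, 3924 and 3807 CPM at day 4 (log2 change 0.31 ± 0.11 (SE), edgeR adjusted p = 0.0757), a call lost when single mice were left out (0.21 to 0.32).

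RPFs of *Cyp2e1* rose at day 4 only by 0.84 ± 0.09 in B and 0.68 ± 0.13 in BM on the log2 scale. At day 10 they were at 6026, 3958 and 7054 CPM in WT, 9853, 8749 and 6829 CPM in B and 9698, 6527 and 6477 CPM in BM, and the ranges overlapped. Neither change of day 10 was called (log2 change 0.56 ± 0.22, edgeR adjusted p = 0.119 in B and log2 change 0.40 ± 0.29, edgeR adjusted p = 0.299 in BM), but both were with library totals (0.83 in B and 0.80 in BM).

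*Cyp2e1* took a larger share of the P450 pool in B and BM than in WT. Summed over the 69 genes, P450 RNA was 11108 to 12831 TPM in WT at day 4 (1.11% to 1.28% of all TPM) and 14607 to 20407 TPM in WT at day 10. BM livers held 21639 to 25447 TPM at day 4 and 19352 to 26313 TPM at day 10, and B livers 17981 to 23286 TPM and 18154 to 22244 TPM. *Cyp2e1* made up 18.1% to 23.8% of this sum in WT at either day. It made up 31.1% to 35.9% in B at day 4, 46.3% to 53.0% in B at day 10, 44.3% to 51.3% in BM at day 4 and 62.4% to 66.7% in BM at day 10. In M the share was 23.7% to 27.8%. The summed level overlapped between BM and WT at day 10, while the *Cyp2e1* share did not.

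**Figure D3:**
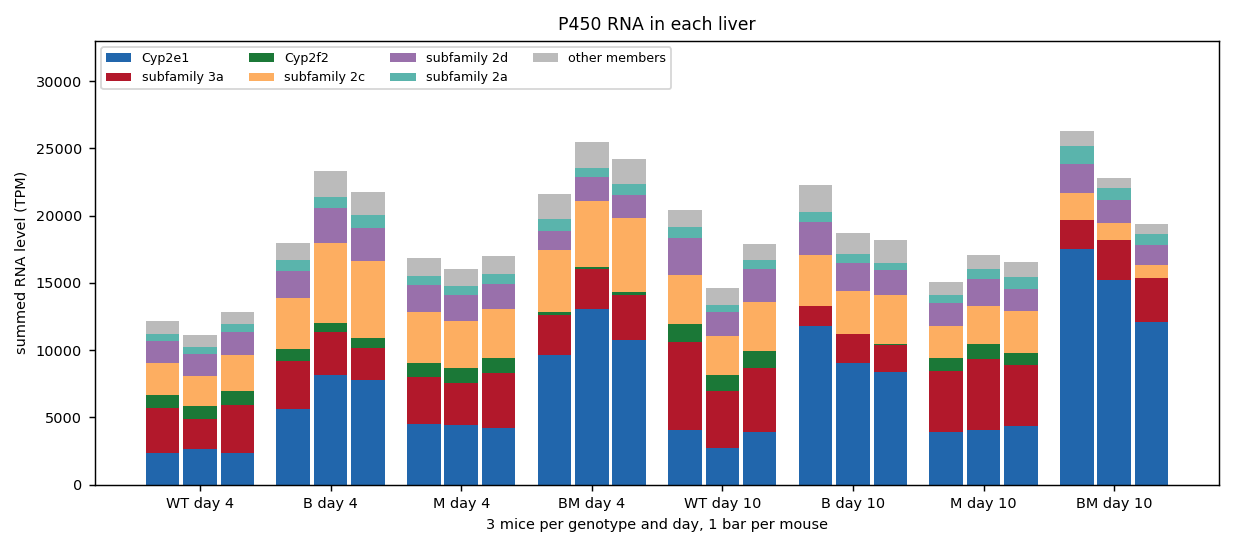
Summed RNA level in TPM of the P450 genes in each of the 24 livers, 1 bar per mouse, stacked by gene or subfamily. The *Cyp2e1* segment grows from 18.1% to 23.8% of the bar in WT to 62.4% to 66.7% in BM at day 10, and the *Cyp2f2* segment is not visible in B and BM at day 10.

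Of the 9 pericentral P450 genes listed (*Cyp1a2*, *Cyp2a5*, *Cyp2c29*, *Cyp2c37*, *Cyp2c50*, *Cyp2c54*, *Cyp2e1*, *Cyp3a11* and *Cyp3a25*), 7 rose in B at day 4 in RNA and none fell, with a median log2 change of 1.22. At day 10, 2 rose and 3 fell in B (median -0.26). BM had 6 higher and 2 lower at day 4 (median 0.67), and 2 higher, *Cyp2e1* and *Cyp2a5*, and 6 lower at day 10 (median -0.91). In M, 5 were higher and 1 lower at day 4, and none was called at day 10. Of all genes, those called higher and lower were 4.41% and 3.73% in B and 21.3% and 20.6% in BM at day 4, 8.14% and 7.48% in B and 22.9% and 22.8% in BM at day 10, and 13.5% and 10.3% in M at day 4. With library totals the pericentral counts higher and lower at day 4 were 7 and 0 (B), 8 and 0 (M) and 8 and 1 (BM), and at day 10 they were 3 and 3 (B), 1 and 0 (M) and 3 and 4 (BM). With the same totals, 14.4% (B), 50.7% (M) and 67.2% (BM) of all genes were higher at day 4 and 19.6% (B), 16.9% (M) and 47.6% (BM) at day 10.

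Subfamily 2a split by gene. *Cyp2a5*, the coumarin hydroxylase, was at 273, 185 and 189.8 CPM in WT, 584, 565 and 666 CPM in B and 529.6, 426 and 474 CPM in BM at day 4, with no overlap (2.79-fold higher in B, log2 change 1.48 ± 0.15 (SE), edgeR adjusted p = 9.34e-05). At day 10, BM had 693, 573 and 538 CPM against 305, 113 and 234 CPM in WT (log2 change 1.47 ± 0.31 (SE), edgeR adjusted p = 0.0069), while its RPFs, at 1671, 763 and 398 CPM, overlapped with WT at 746, 327 and 626 CPM. *Cyp2a4* RNA gave the same direction (1.53 ± 0.17 in B at day 4, 1.61 ± 0.25 in BM at day 10), but its reads can be drawn from *Cyp2a5*. As a sum, *Cyp2a4* and *Cyp2a5* rose by 1.49 ± 0.15 in B at day 4 and 1.49 ± 0.30 in BM at day 10.

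*Cyp2a12*, a testosterone hydroxylase, and its near copy *Cyp2a22* went the other way in the same livers. *Cyp2a12* RNA was at 498, 480.3 and 471 CPM in WT, 357, 280.2 and 331 CPM in B, 335, 319 and 394 CPM in M and 138, 140.3 and 160.5 CPM in BM at day 4. On this TMM scale every mutant mouse was below every WT mouse, and BM lay below both single mutants (log2 change -1.72 ± 0.10 (SE), edgeR adjusted p = 3.01e-08). The call of M at day 4 (-0.47 ± 0.10) ended with library totals (-0.11). At day 10, B had 203, 259 and 152 CPM and BM 211, 88.3 and 62.3 CPM against 530.3, 367 and 488 CPM in WT. The log2 change was -1.17 ± 0.20 in B and -1.93 ± 0.41 in BM, which became -2.62 without BM mouse 1.

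Subfamily 2c, which epoxidises fatty acids and oxidises drugs, rose early in B and fell late in BM. In B, 11 of 13 genes rose in RNA at day 4 and none fell, while at day 10 3 rose and 1 fell. In BM, 7 rose and 2 fell at day 4, and 2 rose and 10 fell at day 10. The shares of all genes called higher were 4.41% in B and 21.3% in BM at day 4, and the shares called lower were 7.48% in B and 22.8% in BM at day 10. With library totals the 2c counts higher and lower were 12 and 0 (B) and 11 and 0 (BM) at day 4, and 3 and 1 (B) and 2 and 9 (BM) at day 10. The shares of all genes higher with library totals were 14.4% (B) and 67.2% (BM) at day 4, and the shares lower were 3.77% (B) and 11.4% (BM) at day 10. All of these 2c counts include *Cyp2c39* where it was called. Without it, TMM gave 6 higher in BM at day 4, 2 in B at day 10 and 1 in BM at day 10. *Cyp2c29*, the most abundant of them in WT, was at 934, 869 and 957 CPM in WT, 1513, 1876 and 2088 CPM in B, 1254, 1159.7 and 1228 CPM in M and 1358, 1557 and 1466 CPM in BM at day 4. All mutant mice were above all WT mice at that time (1.98-fold in B, log2 change 0.99 ± 0.13 (SE), edgeR adjusted p = 0.000541). At day 10 they were at 936, 737 and 1047 CPM in WT, 548, 359 and 393 CPM in B and 202, 91.0 and 61.0 CPM in BM. B and BM now lay below every WT mouse, 2.09-fold in B (log2 change -1.06 ± 0.19 (SE), edgeR adjusted p = 0.00482) and 7.67-fold in BM (log2 change -2.94 ± 0.41 (SE), edgeR adjusted p = 0.000898), and BM was 12.0-fold lower without mouse 1.

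*Cyp2c55*, a CAR and PXR target that makes hydroxyeicosatetraenoic acids, was at 7.79, 5.93 and 9.60 CPM in WT, 29.0, 49.9 and 38.21 CPM in B, 18.2, 15.5 and 13.6 CPM in M and 47.5, 37.4 and 38.6 CPM in BM at day 4. The rise was 5.02-fold in B, 2.04-fold in M and 5.32-fold in BM (log2 change 2.41 ± 0.17 (SE), edgeR adjusted p = 1.94e-07). At day 10 the ranges overlapped, with 20.0, 12.6 and 15.2 CPM in B and 14.3, 4.82 and 8.05 CPM in BM against 13.7, 10.4 and 16.4 CPM in WT. BM at day 10 was not called (log2 change -0.55 ± 0.36, edgeR adjusted p = 0.266), but without mouse 1 it fell by 1.08 in RNA and 2.00 in RPFs, both called. *Cyp2c37*, a pericentral gene, had 122, 135 and 123 CPM in WT, 302, 427 and 479 CPM in B, 246, 243 and 249 CPM in M and 228, 261 and 322 CPM in BM at day 4, all mutants being above WT. At day 10 the ranges of B, M and BM overlapped with that of WT (206, 84.1 and 220.2 CPM), in which mouse 2 was low, and BM was called lower (-0.91 ± 0.35), a call that ended with library totals (-0.49).

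*Cyp2c38* stayed above WT in BM at day 10. *Cyp2c38* RNA was at 6.23, 3.95 and 6.24 CPM in WT and 20.7, 30.3 and 23.7 CPM in BM at day 4, and at 9.32, 5.87 and 5.40 CPM in WT and 24.2, 15.1 and 15.8 CPM in BM at day 10. BM did not overlap with WT at either day, with log2 changes of 2.18 ± 0.22 and 1.42 ± 0.28. Its near copy *Cyp2c39*, a retinoic acid hydroxylase, passed the count filter of day 10 only through B and BM and is described with no test, with RNA counts at day 10 of 11, 10 and 2 in WT, 26, 30 and 23 in B and 34, 34 and 24 in BM.

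*Cyp2c67*, *Cyp2c68*, *Cyp2c69* and *Cyp2c40*, the near copies shown above, had the largest called falls of M at day 10. *Cyp2c67* RNA was at 271, 238 and 269 CPM in WT, 593, 329 and 436 CPM in B, 79.2, 97.8 and 109.7 CPM in M and 43.3, 35.8 and 35.3 CPM in BM. B lay above WT, and M and BM below it. It was 2.70-fold lower in M (log2 change -1.44 ± 0.13 (SE), edgeR adjusted p = 0.000241) and 6.80-fold lower in BM (log2 change -2.77 ± 0.15 (SE), edgeR adjusted p = 8.79e-06). The sum of the 4 copies, which does not depend on how their reads were divided, changed by -1.49 ± 0.16 in M and -1.57 ± 0.17 in BM at day 10 in RNA, and rose by 0.79 ± 0.11 in B at day 4 (log2, with edgeR and all called). *Cyp2c70*, the muricholic acid enzyme, fell in M at day 10 as well (432, 477 and 471 CPM against 715, 569 and 753 CPM, log2 change -0.56 ± 0.13 (SE), edgeR adjusted p = 0.0238) and in BM (-1.79 ± 0.29).

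Subfamily 2b is the classical CAR target group and was nearly silent in these male livers. *Cyp2b10* had 0, 0 and 4 RNA counts in the WT livers of day 4, 12, 26 and 14 in M and 1, 2 and 0 in BM. RPF counts were 2, 2 and 5 in WT and 34, 33 and 38 in M. The M mice were above every WT mouse in both libraries, but at that day the gene passed the count filter only through M, so no test is given. *Cyp2b13* had RPF counts of 0, 2 and 5 in WT and 15, 17 and 32 in M at day 4 but RNA counts of only 0, 2 and 1 in M. It too passed the filter of day 4 only through M and has no test here, and it shares windows with *Cyp2b10*. At day 10, *Cyp2b10* RPFs overlapped between M (2.34, 5.71 and 1.31 CPM) and WT (2.54, 1.02 and 0.841 CPM).

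All 7 *Cyp2d* genes, relatives of the human debrisoquine hydroxylase, fell in BM at day 4, in RNA and in RPFs, with a median RNA change of -1.001 (all genes called lower, 20.6% in RNA and 24.7% in RPFs). The RPF count includes *Cyp2d34*, which passed the count filter there only through WT, and is 6 without it. With library totals, 6 of 7 were lower in each (all genes, 5.48% in RNA and 8.70% in RPFs). In B at day 4, 1 of 7 was called in RNA, higher (all genes, 4.41%), and 4 were higher with library totals (all genes, 14.4%). In M, 4 of 7 fell (all genes, 10.3%), or 3 higher and 2 lower with library totals (all genes, 50.7% and 2.60%). *Cyp2d9*, a male-predominant testosterone hydroxylase, was at 883, 941 and 844 CPM in WT, 1062, 1126 and 1088 CPM in B, 854, 886 and 833 CPM in M and 479, 672 and 552 CPM in BM. Only the BM group lay wholly below WT (log2 change -0.65 ± 0.12 (SE), edgeR adjusted p = 0.000913), and this call ended with library totals. At day 10, BM had 702, 603 and 521 CPM against 1139, 543 and 1170.1 CPM in WT, and the change of -0.65 ± 0.28 was not called, while it was called without BM mouse 1 (-0.77). *Cyp2d40* fell in M at both days, from 72.1, 69.4 and 62.1 CPM to 27.4, 31.9 and 27.1 CPM at day 4 (log2 change -1.23 ± 0.11 (SE), edgeR adjusted p = 7.55e-06) and from 51.3, 34.8 and 54.5 CPM to 28.1, 26.4 and 14.6 CPM at day 10. *Cyp2d26* fell in M at both days too (-0.59 ± 0.09 and -0.87 ± 0.18).

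Subfamily 3a, the main drug-oxidising group, fell in B at day 10 and in BM at both days. In B, 2 of 7 genes fell at day 4 and 6 at day 10, and in BM 5 fell at day 4 and 7 at day 10. The shares of all genes called lower were 3.73% and 7.48% in B and 20.6% and 22.8% in BM. With library totals B had 1 lower at day 4 and 6 at day 10, and BM had 2 higher and 4 lower at day 4 and 4 lower at day 10, where all genes gave 2.07% and 3.77% lower in B and 5.48% and 11.4% lower in BM. The effect was lower at day 10 than at day 4 for 4 genes in B and for *Cyp3a16* in BM (-0.96 ± 0.37), while for *Cyp3a11* in BM the difference was not called (log2 change -0.73 ± 0.35, edgeR adjusted p = 0.146). *Cyp3a11* was at 5627, 3542 and 5348 CPM in WT, 5207, 3782 and 3018 CPM in B and 2429.7, 2517 and 2829 CPM in BM at day 4. B overlapped with WT, and BM was below it (log2 change -0.90 ± 0.16 (SE), edgeR adjusted p = 0.00056). At day 10 the values were 8654, 4635 and 6346 CPM in WT, 1527, 2138 and 1621 CPM in B, 5085, 6072 and 4061 CPM in M and 1502, 2249 and 2615 CPM in BM. B and BM were below every WT mouse, 3.71-fold in B (log2 change -1.89 ± 0.25 (SE), edgeR adjusted p = 0.000796) and 3.10-fold in BM (log2 change -1.63 ± 0.28 (SE), edgeR adjusted p = 0.00258). As a sum with its near copies *Cyp3a16*, *Cyp3a41b* and *Cyp3a44* the change was -1.88 ± 0.25 in B and -1.63 ± 0.28 in BM. *Cyp3a11* RPFs of BM at day 10 fell by 1.00, which was not called without WT mouse 1 (-0.90) or mouse 3 (-0.96) or with library totals (-0.64).

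*Cyp3a13*, which lies apart from the other 3a genes, fell in all 3 mutant genotypes at day 4, from 277, 209.6 and 259 CPM in WT to 136, 109 and 107 CPM in B, 153, 139 and 153 CPM in M and 89.6, 88.4 and 82.6 CPM in BM at day 4. None of these groups overlapped with WT (-1.09 ± 0.13, -0.74 ± 0.11 and -1.51 ± 0.11). At day 10 it was lower in BM (-0.77 ± 0.15), by less than at day 4 (difference 0.74 ± 0.20), and not called in B (log2 change -0.54 ± 0.21, edgeR adjusted p = 0.127). *Cyp3a59* rose in M at both days, with 94.2, 64.4 and 80.8 CPM in WT and 189, 191 and 142 CPM in M at day 10, every M mouse being above every WT mouse (log2 change 1.13 ± 0.16 (SE), edgeR adjusted p = 0.00148). Its RPFs rose by 1.74 ± 0.23, and RPFs of its near copy *Cyp3a57* by 1.71 ± 0.35. *Cyp3a25*, the third of these near copies, rose in M at day 4 in RNA (0.42 ± 0.11) and RPFs (0.44 ± 0.10). The summed RNA of the 3 rose by 0.49 ± 0.11 in M at day 4 and 0.50 ± 0.17 at day 10.

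The PPARα targets *Cyp4a10*, *Cyp4a14* and *Cyp4a31*, which hydroxylate the end of fatty acid chains, all rose in B at both days and in BM at day 4, and none was called in M RNA or, with TMM, in BM at day 10, where library totals gave 2 higher. *Cyp4a14* RNA was at 3.56, 1.54 and 2.64 CPM in WT, 24.5, 13.5 and 52.3 CPM in B and 70.0, 64.7 and 47.4 CPM in BM at day 4. Its RNA counts in WT at day 4 were 16, 7 and 11, near the filter. B and BM did not overlap with WT. In both comparisons the gene passed the count filter only through the mutant group, so no test of these RNA rises is given. M had 0.950, 0.596 and 2.67 CPM and was not called (log2 change -0.98 ± 0.51, edgeR adjusted p = 0.213). At day 10 the WT mice differed widely at 17.8, 2.93 and 4.17 CPM, B had 18.0, 15.1 and 46.3 CPM and BM 15.9, 4.59 and 4.68 CPM. The B range overlapped narrowly with WT, and its call (log2 change 1.67 ± 0.57 (SE), edgeR adjusted p = 0.086) was lost without WT mouse 2 (1.22), WT mouse 3 (1.36) or B mouse 3 (0.97) and with DESeq2 (1.67). *Cyp4a10* was steadier, with 66.7, 21.5 and 30.2 CPM in WT and 160.0, 184 and 203 CPM in B at day 10 (log2 change 2.21 ± 0.32 (SE), edgeR adjusted p = 0.00124) and 127, 60.5 and 43.9 CPM in BM, which overlapped with WT. RPFs of BM at day 4 changed by 4.28 ± 0.22 for *Cyp4a14* and 2.86 ± 0.12 for *Cyp4a10*. In M at day 4, RPFs of *Cyp4a31* were called lower (-0.70 ± 0.18, or -0.48 with library totals), where its RNA was not called.

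Among the remaining genes, *Cyp2j5*, an arachidonic acid epoxygenase, fell in all 3 mutant genotypes at day 10. Its RNA was at 643, 584 and 587 CPM in WT, 254, 259.6 and 277 CPM in B, 461, 451 and 419 CPM in M and 77.7, 51.4 and 48.6 CPM in BM at day 10, the BM mice lying far below all others (10.2-fold below WT, log2 change -3.35 ± 0.21 (SE), edgeR adjusted p = 2.15e-05). The call of M (-0.44 ± 0.11) ended with library totals (-0.26). *Cyp2u1*, a fatty acid hydroxylase found in many tissues, was at 103, 88.6 and 110.5 CPM in WT, 40.2, 23.2 and 25.2 CPM in B and 17.7, 12.4 and 12.7 CPM in BM at day 10 (-1.77 ± 0.20 in B and -2.81 ± 0.18 in BM), with no overlap between the groups. Of the 5 *Cyp4f* genes tested in RNA, 2 rose in B at day 4, 3 fell in M at day 10 and 4 fell in BM at day 10. In RNA of BM at day 10, *Cyp4f16* passed the count filter only through BM and has no test here. Its RNA counts at day 10 were 12, 20 and 12 in WT and 52, 32 and 25 in BM. Of all genes, 4.41% were higher in B at day 4, 7.12% lower in M at day 10 and 22.8% lower in BM at day 10. With library totals, 2 were higher in B at day 4, 1 lower in M at day 10, and 1 higher and 1 lower in BM at day 10 (all genes, 14.4% higher in B at day 4 and 11.4% lower in BM at day 10). *Cyp4f18*, known as a leukocyte gene, passed the filter only in RPFs of B and BM at day 10, through the counts of those groups, with 34, 22 and 24 RPF counts in BM and 10, 4 and 1 in WT at day 10, so no test is given.

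Some of these genes are known to differ between the sexes. The female-biased genes counted here all belong to the groups of near copies described above, so their single values are uncertain. Of the 5 genes higher in female liver that were tested (*Cyp2a4*, *Cyp2c40*, *Cyp2c69*, *Cyp3a16* and *Cyp3a44*), 1 rose and 2 fell in BM at day 4, and 1 rose and 4 fell at day 10 (3 and 2 at day 4 and 1 and 4 at day 10 with library totals). Both male-predominant genes tested, *Cyp2d9* and *Cyp2c70*, fell in BM at day 4 (neither was called with library totals), and at day 10 *Cyp2c70* was called lower and *Cyp2d9* was not. Of all genes, 20.6% and 22.8% were called lower at these days.

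Adding MYC to mutant β-catenin lowered most P450 genes that it changed. At day 4, BM against B gave 29 of 51 RNAs lower (all genes, 16.7%) and 5 higher (all genes, 18.1%). With library totals 21 were lower (all genes, 5.3%) and 11 higher (all genes, 49.6%). At day 10 it gave 22 of 51 lower (all genes, 15.7%) and 4 higher (all genes, 16.1%). With library totals these were 20 and 8 (all genes, 10.2% and 23.1%), and without BM mouse 1 they were 29 and 6 (all genes, 23.7% and 22.6%). *Cyp2f2* (-2.50 ± 0.30), *Cyp2c67* (-3.55 ± 0.25), *Cyp2j5* (-2.14 ± 0.20) and *Cyp1a2* (-1.81 ± 0.36) were lower in BM than in B at day 10, while *Cyp2e1* was not called at either day (0.16 ± 0.17 and 0.29 ± 0.28), though library totals gave a call at day 4 (0.49). *Cyp4a14* was higher in BM than in B at day 4 (1.04 ± 0.32) and lower at day 10 (-1.61 ± 0.54).

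BM against M gave 15 of 52 RNAs higher (all genes, 14.6%) and 22 lower (all genes, 15.9%) at day 4. With library totals 19 were higher (36.5%, near the 33.6% of all genes) and 18 lower (all genes, 9.27%). At day 10 it gave 9 of 52 higher (all genes, 16.3%) and 26 lower (all genes, 16.6%). With library totals these were 11 and 23 (all genes, 26.7% and 10.2%), and without BM mouse 1 they were 8 and 31 (all genes, 24.9% and 25.5%). The higher counts include *Cyp4a14* at day 4, *Cyp2c39* at day 10 and *Cyp1a1* at both days, and the lower count of day 4 *Cyp2b10*, which passed the filter only through the higher group. *Cyp4a14*, given with no test, was at 70.0, 64.7 and 47.4 CPM in BM and 0.950, 0.596 and 2.67 CPM in M at day 4. *Cyp1a2* (1.73 ± 0.11) and *Cyp2e1* (1.07 ± 0.14) were higher in BM than in M at day 4. Of these 2, only *Cyp2e1* was still called at day 10 with TMM (1.46 ± 0.20), while library totals also called *Cyp1a2* (0.65).

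The change of an effect between the days was tested as a contrast over the 12 mice of WT and 1 genotype, and the WT mice are shared by the 3 genotypes. In B, 15 of 51 P450 effects were lower at day 10 than at day 4 and 0 higher, where 9.31% of all genes were called in either direction. The count of B was 25 without WT mouse 2 of day 10, and 26 without the count filter, 1 of them higher. Without the filter, 3.85% of the P450 calls and 50.21% of all calls were higher. The share of all genes called is not given for either fit. DESeq2 also gave 0 higher. In M, 5 of 53 were lower and 0 higher (all genes, 1.2%), and these were the 4 near copies *Cyp2c40*, *Cyp2c67*, *Cyp2c68* and *Cyp2c69* with *Cyp4f14*, a leukotriene hydroxylase. The 5 calls of M were 3 without M mouse 1 of day 4 or of day 10 and 9 without WT mouse 2 of day 10. In BM, 24 of 52 were lower and 3 higher (all genes, 29.9% in either direction). Without BM mouse 1, 30 were lower (all genes, 23.8%) and 3 higher (all genes, 19.7%), and 43.5% of all genes were called in either direction.

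The largest turns in B were those of *Cyp2f2* (log2 change -4.62 ± 0.34, edgeR adjusted p = 5.46e-07), *Cyp2c55* (-2.08 ± 0.34) and *Cyp2c29* (-2.05 ± 0.24). For *Cyp3a11* the difference was -1.61 ± 0.35. *Cyp1a2* and *Cyp2e1* gave 0.26 ± 0.41 and -0.01 ± 0.33 and were not called. In BM, *Cyp2f2* (-4.83 ± 0.29), *Cyp4a14* (-4.50 ± 0.84), *Cyp2c29* (-3.61 ± 0.43) and *Cyp1a2* (-1.36 ± 0.31) all dropped, and *Cyp2e1* was not called (0.11 ± 0.32). The *Cyp4a14* value rests in part on WT RNA counts of 16, 7 and 11 at day 4, near the filter.

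Changes in RPFs mostly followed those in RNA. Translation efficiency (TE), the RPF level relative to the RNA level of the same mouse, was tested as the interaction of genotype and library type. Few P450 genes were called: 1 lower and 0 higher of 48 in B at day 4 (all genes, 0.0488% in either direction), 1 lower and 1 higher of 49 in M (all genes, 0.98%) and 3 lower and 0 higher of 48 in BM (all genes, 2.29%). At day 10 there were 1 lower of 48 in B (all genes, 0.047%), 1 lower of 49 in BM (all genes, 0.259%) and 0 of 47 in M (all genes, 0.0%) with edgeR, where 2 had an unadjusted p under 0.05, DESeq2 called 1, and 1 was called without M mouse 3 of day 10. With the mouse as a block, which pairs the libraries of 1 liver, 2 were lower in B at day 4 (all genes called in either direction, 0.293%), 3 higher and 1 lower in M (all genes, 2.70%) and 1 higher and 6 lower in BM (all genes, 6.11%). The block gave 5 lower in B at day 10 (all genes, 2.65%), 1 higher and 1 lower in M (all genes, 0.344%) and 1 higher and 5 lower in BM (all genes, 5.18%). Without the block, the call of B at day 4 was lost without WT mouse 2 or 3 or B mouse 3, and that of B at day 10 without WT mouse 3. BM at day 10 had 0 calls without WT mouse 3 and 10 of 49 (20.4%) without BM mouse 1, where 22.0% of all genes were called.

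*Cyp2c40* was the gene called lower in TE in B and BM at both days, on few RPF counts, and it was the only TE call of each at day 10. It had 165, 82 and 109 RPF counts in WT, 10, 24 and 23 counts in B, 6, 5 and 19 counts in M and 2, 6 and 5 counts in BM at day 10, with RNA at 166, 107 and 137 CPM in WT and 153, 109 and 139 CPM in B. At day 10 its RPFs passed the count filter only through WT, so no TE change of this gene is given for that day. For the sum of the 4 near copies the log2 TE change was -0.24 in B and -0.20 in BM, not called.

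*Cyp1a2* gained less in RPFs than in RNA. Its log2 ratio of RPF to RNA CPM was 2.47, 2.46 and 2.74 in WT and 1.78, 1.72 and 1.87 in BM at day 4, with no overlap (log2 change -0.73 ± 0.14 (SE), edgeR adjusted p = 0.0129). At day 10 it was 2.85, 2.39 and 2.51 in WT, 1.15, 1.77 and 1.64 in B and 1.70, 0.62 and 0.02 in BM, all B and BM mice lying below WT. These changes were not called without the block (log2 change -1.18 ± 0.50, edgeR adjusted p = 0.901 in B and log2 change -1.50 ± 0.73, edgeR adjusted p = 0.513 in BM) and were called with it (-1.09 ± 0.15, edgeR adjusted p = 6.92e-05, and -1.81 ± 0.33, edgeR adjusted p = 0.023). Without BM mouse 1 and without the block, the TE change of *Cyp1a2* in BM at day 10 was -2.26 and called.

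*Cyp2e1* showed the same pattern at a smaller size. Its log2 ratio was 0.58, 0.79 and 0.78 in WT, -0.12, 0.19 and 0.23 in B and -0.20, -0.63 and -0.32 in BM at day 10, without overlap. No change was called without the block (log2 change -1.09 ± 0.41, edgeR adjusted p = 0.418 in BM at day 10), except that BM at day 10 was called without BM mouse 1 (-1.19), and with the block TE was lower in B at day 10 (-0.64 ± 0.14, edgeR adjusted p = 0.012) and in BM at day 4 (-0.70 ± 0.09) and day 10 (-1.11 ± 0.17, edgeR adjusted p = 0.00915). *Cyp2c37* was lower in TE in M at day 4 (1.89, 1.94 and 2.02 against 2.47, 2.46 and 2.55 in WT, log2 change -0.51 ± 0.11 (SE), edgeR adjusted p = 0.0396) and in BM (1.94, 1.89 and 1.75, log2 change -0.62 ± 0.17 (SE), edgeR adjusted p = 0.0969), but for its sum with the near copies *Cyp2c50* and *Cyp2c54* the change was 0.012 in M and -0.11 in BM, neither called. *Cyp2d40* was higher in TE in M at day 4 (log2 change 0.57 ± 0.13 (SE), edgeR adjusted p = 0.0472), where its RNA had fallen. The 2 TE calls of M at day 4 were 0 without WT mouse 3 or M mouse 1 and 1 without any other mouse. *Cyp3a11* overlapped with WT in TE in B at both days.

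**Figure D4:**
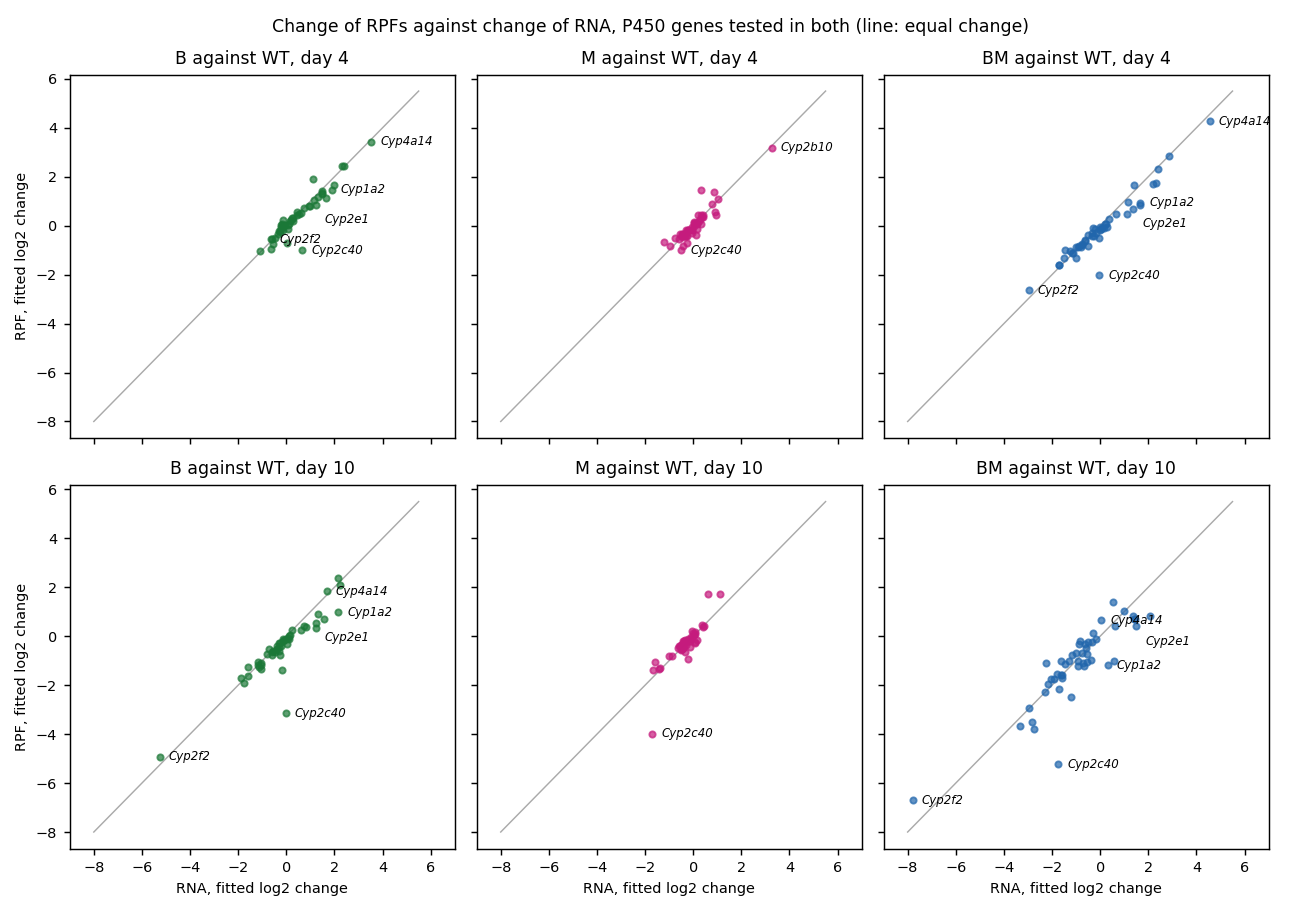
Fitted log2 change of RPFs (vertical) against that of RNA (horizontal) for P450 genes tested in both, in each comparison with WT, 1 point per gene, with a line for equal change. Most points lie near the line, *Cyp2c40* lies far below it in B, M and BM at day 10, and *Cyp1a2* and *Cyp2e1* lie below it in B and BM.

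**Figure D5:**
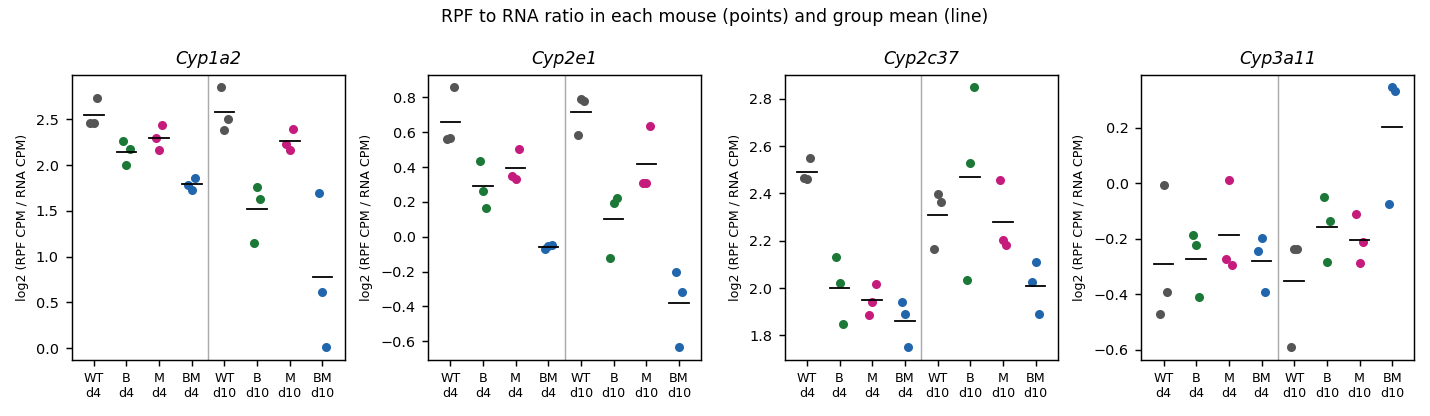
Log2 ratio of RPF to RNA CPM of *Cyp1a2*, *Cyp2e1*, *Cyp2c37* and *Cyp3a11* in each mouse (points, coloured by genotype) with the group mean as a line. The ratio of *Cyp2e1* lies between 0.58 and 0.79 in WT at day 10 and between -0.63 and -0.20 in BM at day 10.

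The proximal promoters were searched for letters that the factors above are known to bind, on both strands of the 250 bases before the start (RefSeq, GRCm38.p6), in 64 promoters of 57 P450 genes. ATCAAAG, a core of TCF/LEF sites through which β-catenin acts, was in 3 of 64 (4.688%) and in 3.205% of all 32851 promoters, and the genes with it were *Cyp2c29* and *Cyp2c39*. CAAAGTCCA, an HNF4 site, was in 8 of 64 (12.5%) against 0.384% of all promoters, in *Cyp3a11*, *Cyp3a16*, *Cyp2c70*, *Cyp2c65* and the 4 near copies around *Cyp2c40*. GCGTG, the core of the AhR element, was in 12 of 64 (18.75%) against 28.157% of all promoters, among them *Cyp1a1*. Near copies share promoter sequence, so these promoters are not independent, and a match is not a bound site. The promoters of 3 genes whose RNA fell in B at day 10 are printed here because they differ in these matches, with any match in capitals: *Cyp2c29* (chr19:39286835-39287084, plus strand, ATCAAAG 119 bases before the start), *Cyp3a11* (chr5:145879855-145880104, minus strand, CAAAGTCCA 109 bases before the start) and *Cyp2f2* (chr7:27119705-27119954, plus strand, none of the letters searched).
Cyp2c29: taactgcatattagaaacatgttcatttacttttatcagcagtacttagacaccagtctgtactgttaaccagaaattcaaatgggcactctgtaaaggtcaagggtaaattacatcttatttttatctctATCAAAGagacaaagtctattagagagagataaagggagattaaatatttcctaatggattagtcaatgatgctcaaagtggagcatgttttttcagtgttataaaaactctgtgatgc
Cyp3a11: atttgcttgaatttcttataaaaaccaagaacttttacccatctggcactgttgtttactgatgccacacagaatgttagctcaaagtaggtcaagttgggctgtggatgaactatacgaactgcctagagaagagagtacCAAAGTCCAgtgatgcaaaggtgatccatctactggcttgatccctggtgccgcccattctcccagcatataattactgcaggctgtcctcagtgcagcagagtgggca
Cyp2f2: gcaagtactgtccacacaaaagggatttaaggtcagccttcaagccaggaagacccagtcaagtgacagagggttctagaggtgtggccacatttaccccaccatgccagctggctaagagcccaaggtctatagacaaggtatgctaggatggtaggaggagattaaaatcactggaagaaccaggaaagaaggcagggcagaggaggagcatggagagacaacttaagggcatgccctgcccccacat

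Partners and regulators of the P450 enzymes were counted as a list of 25 genes, of which 23 could be tested. In RNA, 5 rose in B at day 4 (all genes, 4.41%) and 1 fell (all genes, 3.73%), and 4 and 3 at day 10 (all genes, 8.14% and 7.48%). In M, 1 rose and 2 fell at day 4 (all genes, 13.5% and 10.3%), and 1 and 0 at day 10 (all genes, 8.53% and 7.12%). BM had 6 higher and 10 lower at day 4 (all genes, 21.3% and 20.6%) and 5 higher and 8 lower at day 10 (all genes, 22.9% and 22.8%), so its counts of higher genes were near those of all genes. With library totals the counts higher and lower at day 4 were 8 and 0 (B), 14 and 0 (M) and 13 and 2 (BM), and at day 10 they were 5 and 3 (B), 4 and 0 (M) and 10 and 4 (BM), where the shares of all genes higher were 14.4% (B), 50.7% (M) and 67.2% (BM) at day 4 and 19.6% (B), 16.9% (M) and 47.6% (BM) at day 10. *Por*, the reductase that feeds all of these enzymes, rose in B (0.89 ± 0.10 at day 4, 1.53 ± 0.17 at day 10) and in BM (1.15 ± 0.15 and 3.53 ± 0.33). *Ahr*, the receptor behind *Cyp1a* induction, rose in B (1.26 ± 0.23 and 1.72 ± 0.14) and BM (1.14 ± 0.10 and 1.27 ± 0.12). *Alad*, of haem synthesis, rose in B (0.89 ± 0.15 at day 4 and 0.90 ± 0.24 at day 10).

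*Cebpa*, a hepatocyte transcription factor, fell in B at day 10 (-0.96 ± 0.16) and in BM at both days (-0.81 ± 0.14 and -1.36 ± 0.21). *Bcl6*, a transcriptional repressor, and *Stat5b*, which carries the growth hormone signal, fell in B at day 10 (-1.76 ± 0.24 and -0.83 ± 0.13). *Hnf4a* was called lower in BM at day 4 (-0.49 ± 0.12) and *Ppara* in BM at day 10 (-0.49 ± 0.21), but neither was with library totals (0.066 and -0.077), while *Nr1i3*, which encodes CAR, rose in BM (0.80 ± 0.21 and 1.10 ± 0.27).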

How the data were processed

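RPFs and cytoplasmic RNA ("Totals") were sequenced from the same 24 livers. RPF reads were trimmed by the authors (Cutadapt 1.18), who aligned them with BBmap to the most abundant transcript of each gene (GENCODE vM27, GRCm39) and then removed duplicates by their molecular identifiers. The deposited RPF values were raw counts over the coding sequence without its ends. For RNA, the authors used Bowtie2 2.3.5.1, SAMtools 1.9 and RSEM 1.3.3, and the deposited expected counts per isoform were summed per gene and rounded. TPM values, also deposited by the authors and corrected for length by RSEM, served for levels between genes. The submitters' processing notes also name R 4.3.1 and DESeq2. A transcript with no line in an RPF table was taken as 0. Symbols and positions came from GENCODE vM39 (20614 of 20622 genes matched) and promoters from RefSeq.

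Tests used edgeR 4.0.16 in R 4.3.3 (quasi-likelihood F test, TMM, filterByExpr with a minimum count of 10 and a minimum total count of 15), on the mice of the groups compared only. TE was the interaction of group and library type. Benjamini-Hochberg adjustment ran over all genes. Alternatives were DESeq2 1.42.0, 2 other scalings, no filter, a replicate block, leaving out each mouse and, added after seeing the data, summing near copies and leaving out a BM liver throughout. Counts without calls on genes that passed the filter only through 1 group were also added after seeing the data. The tests were checked on simulated counts. With 3 mice against 3, an exact permutation test of 1 gene cannot go below 0.1, so none was used. No library pair of a group agreed within sampling noise. The RPF and RNA libraries of a mouse deviated together (correlation 0.312 to 0.6878, median 0.5208, n = 24 mice), so they were treated as paired in the blocked TE fit. The labels and the paper's methods give no batch.

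Members and lists were chosen with earlier results of these data known. Named genes were the best known member of each subfamily, up to 5 called members per direction and comparison with the largest changes and no overlap between groups, all called TE members and the most abundant member of each subfamily. *Cyp2c50*, *Cyp2c54*, *Cyp3a25*, *Cyp2d10*, *Cyp4f14* and members below the count filter were named outside this rule, after their values were seen. CPM are per 1000000 reads. RNA of *Ctnnb1* and *Myc* did not check the labels, since an exon deletion and a human transgene are not told apart in these tables.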

Additional observations from a re-analysis of the deposited data

Results flagged for a closer look

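The size of the RNA difference from WT changed between day 4 and day 10 for several P450 genes, tested as a contrast over 12 mice with edgeR. In B, the difference moved by -4.62 for *Cyp2f2* (edgeR adjusted p = 5.46e-07), by -1.61 for *Cyp3a11* (edgeR adjusted p = 0.0106) and by -2.05 for *Cyp2c29* (edgeR adjusted p = 8.95e-05), all in log2 units as day 10 minus day 4. *Cyp2f2* was lower than WT at both days and lower still at day 10, *Cyp3a11* was called lower at day 10 only, and *Cyp2c29* turned from higher to lower.

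In BM, the difference moved by -4.83 for *Cyp2f2* (edgeR adjusted p = 7.98e-08), by -4.50 for *Cyp4a14* (edgeR adjusted p = 0.00186), by -3.61 for *Cyp2c29* (edgeR adjusted p = 6.65e-05) and by -1.89 for *Cyp4a10* (edgeR adjusted p = 0.0213). It moved by -1.36 for *Cyp1a2* (edgeR adjusted p = 0.00733) and by -1.08 for *Cyp1a1* (edgeR adjusted p = 0.0573). The *Cyp1a1* value was not called when 1 of 5 mice was left out: at day 4, WT mouse 3 (-0.90) or BM mouse 1 (-1.003), and at day 10, WT mouse 1 (-0.97), WT mouse 3 (-0.89) or BM mouse 3 (-1.02). The *Cyp4a14* value rests in part on WT RNA counts of 16, 7 and 11 at day 4, near the filter. The hepatocyte marker sum of BM was 30359 to 38831 CPM at day 4 and 27075 to 29543 CPM at day 10, and its part in these differences was not tested.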

How the results depend on the processing

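Of 11368 values of single genes under an alternative, 10699 kept their direction and their side of the threshold, 349 lost a call, 299 gained one and 21 reversed. Most reversals came with library totals, which raise the median of all genes in RNA and RPFs of each genotype against WT. They were *Cyp1a2* (0.30), *Cyp2d9* (0.31), *Cyp2a22* (0.020) and *Cyp2c67* (0.047) in RNA and *Cyp2d9* (0.16) in RPFs of M at day 4, *Cyp3a59* (0.34), *Cyp2c40* (0.52) and *Cyp2j6* (0.37) in RNA of BM at day 4, *Cyp3a59* (0.31), *Cyp2j6* (0.13), *Cyp2c69* (0.29), *Cyp2c67* (0.38), *Cyp2c68* (0.35) and *Cyp4f16* (0.35) in RPFs of BM at day 4, and *Cyp2a4* (0.011) and *Cyp2a5* (0.016) in BM against B at day 4. With near copies summed, the group of *Cyp2c40* reversed in RPFs of B at day 4 (0.77) and day 10 (0.068), that of *Cyp2c37* in TE of M at day 4 (0.012) and that of *Cyp2c68* in BM against M at day 10 (-0.056). *Cyp2a22* reversed in the BM difference between days without BM replicate 1 of day 10 (-0.68).

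Counts of P450 genes called were within 1.5 times of the reported one in RNA and RPFs of each genotype against WT, apart from leaving out mice. In TE, library totals gave 1 in M and 6 in BM at day 4, and DESeq2 gave 1 in M at day 10. Summing near copies gave at day 4 no call in B and 1 each in M and BM, and at day 10 no call in B or BM, where fewer features were tested. With the replicate block, TE counts at day 4 were 2 for B, 4 for M and 7 for BM, and at day 10 they were 5, 2 and 6. The difference between days gave 26 in B and 11 in M with no expression filter and 8 in M with library totals. Apart from these effects of construction, the cause was not tested.

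RNA and RPF libraries of different genotypes share only a replicate number. Over 18 pairs of same-numbered mice the correlation of their deviations was -0.2717 to 0.3242 in RNA and -0.2166 to 0.2709 in RPFs, and 6 and 3 pairs were over 0.1. The block then gave day 4 RNA counts of 26 for B, 28 for M and 40 for BM, and day 10 counts of 28, 12 and 43.

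Leaving out 1 mouse at a time gave these lowest and highest counts. RNA at day 4 ranged from 21 to 27 in B, 17 to 25 in M and 34 to 39 in BM, and at day 10 from 19 to 26 in B, 8 to 19 in M and 34 to 42 in BM. RPFs at day 4 ranged from 23 to 32 in B, 26 to 34 in M and 35 to 38 in BM, and at day 10 from 22 to 27, 11 to 20 and 29 to 38. TE at day 4 ranged from 0 to 1 for B, 0 to 1 for M and 2 to 3 for BM, and at day 10 from 0 to 1, 0 to 1 and 0 to 10. BM against B ranged from 31 to 36 at day 4 and 20 to 35 at day 10, BM against M from 34 to 38 and 29 to 39, and the day difference from 10 to 25 in B, 3 to 9 in M and 24 to 33 in BM. The RNA libraries were less deep than the RPF libraries, which limits calls for genes near the count filter such as *Cyp2b10*, *Cyp2c39* and *Cyp1b1*.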

Other observations

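Several P450 genes outside the best known drug-oxidising group also fell in BM at day 10, and they are named here after their values were seen. *Cyp2r1*, a vitamin D 25-hydroxylase, was at 27.7, 30.9 and 34.1 CPM in WT, 20.6, 21.7 and 24.7 CPM in B, 24.1, 22.2 and 23.3 CPM in M and 13.9, 6.65 and 7.01 CPM in BM. With TMM all mutant mice were below WT, and mouse 1 of BM was the highest of its group (log2 change -1.73 ± 0.28 (SE), edgeR adjusted p = 0.00176). With library totals neither B (-0.23) nor M (-0.22) was called. *Cyp2c23*, an arachidonic acid epoxygenase, was at 299, 294 and 314 CPM in WT and 92.8, 51.6 and 42.1 CPM in BM (log2 change -2.28 ± 0.27 (SE), edgeR adjusted p = 0.000433), although B had been above WT at day 4 (0.61 ± 0.10). *Cyp4v3*, a fatty acid hydroxylase related to the human gene of a retinal dystrophy, fell from 751, 563 and 767 CPM in WT to 487, 433 and 326 CPM in B and 373, 267 and 280.3 CPM in BM.

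*Cyp2j6*, a fatty acid epoxygenase, was higher in M at both days, at 117, 102 and 132 CPM against 93.3, 85.8 and 100.0 CPM at day 4 and 119.7, 106 and 125 CPM against 95.6, 78.1 and 95.5 CPM at day 10. The M mice lay above every WT mouse of their day (log2 change 0.33 ± 0.11 (SE), edgeR adjusted p = 0.0522 at day 4 and 0.39 ± 0.12 at day 10). *Cyp4x1*, an orphan P450, rose in M (0.66 ± 0.26) and BM (1.36 ± 0.24) at day 4 in RNA, from 3.79, 3.07 and 4.32 CPM in WT to 11.4, 8.99 and 8.19 CPM in BM, and its RPFs were at 0 in every library.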
